A study of Mus musculus with 8 samples.

Results

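The immunoglobulin heavy chain variable (Ighv) segments are the gene pieces that encode most of the antigen-binding domain of an antibody heavy chain. They were taken as every entry of the deposited count table whose gene name starts with Ighv: 185 IDs under 183 names, of 55421 genes in all. GENCODE M21 annotates 113 as functional variable segments, 70 as variable pseudogenes and 2 as a further class (second IDs of Ighv5-8 and Ighv1-13). They lie on chromosome 12 between 113572927 and 116010093 (GRCm38), 183 on the minus strand and the 2 of the further class on the plus strand. Their median exonic length is 351 bp.

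Bulk RNA sequencing had been done on small intestine of mice given in the labels as wild type. Every mouse was kept at 7% oxygen for 7 days: 4 samples (Hypoxia) came from mice with no other treatment and 4 (Hypoxia+Nitrate) from mice that also received 4 mM nitrate. There was no group at normal oxygen, and the labels state no strain, sex, age or intestinal region. Whether the samples are separate animals is not stated, so each p-value here reflects sample-to-sample spread, which may be technical. The extraction protocol speaks of islets, although the tissue is small intestine.

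In a developing B cell, RAG recombinase joins a single Ighv segment to a D and a J segment, and the joined exon is spliced to a constant region such as Ighm or Igha. Each B cell lineage therefore transcribes mainly its own rearranged segment, so a broad B cell population uses many segments and an expanded clone repeats few. In the small intestine the main source of heavy chain RNA is the IgA plasma cell, whose dimeric antibody is held together by the J chain and carried through the epithelium by the polymeric immunoglobulin receptor. Pseudogene segments cannot give a heavy chain, and segments that have not been rearranged are only weakly transcribed.

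The last bases of some leading segments show how far they differ where they join the D segment. Each line gives the final 60 bases of the annotated segment (GENCODE M21 transcripts, GRCm38, sense strand); capitals mark the match to TANTACTGT, the codons for tyrosine, tyrosine and the conserved cysteine that ends framework 3. Ighv5-6, Ighv5-1, Ighv2-9-1, Ighv1-15 and Ighv1-36 had counts in every Hypoxia+Nitrate library. Ighv1-55 and Ighv7-2 led 1 library each, and Ighv6-4 led a Hypoxia library and had no count in Hypoxia+Nitrate. Ighv1-62-2 and Ighv11-1, which each led a Hypoxia library too, hold 0 matches to the motif and are not printed.
Ighv5-6: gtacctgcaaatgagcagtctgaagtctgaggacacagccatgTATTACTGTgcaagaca
Ighv5-1: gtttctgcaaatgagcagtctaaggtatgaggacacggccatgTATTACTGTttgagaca
Ighv2-9-1: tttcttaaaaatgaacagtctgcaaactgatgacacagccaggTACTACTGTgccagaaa
Ighv1-15: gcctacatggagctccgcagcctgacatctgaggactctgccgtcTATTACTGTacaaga
Ighv1-36: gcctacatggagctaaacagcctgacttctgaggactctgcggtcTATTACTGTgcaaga
Ighv1-55: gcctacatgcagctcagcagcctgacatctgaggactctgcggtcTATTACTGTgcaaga
Ighv7-2: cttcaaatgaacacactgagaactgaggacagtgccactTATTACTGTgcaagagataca
Ighv6-4: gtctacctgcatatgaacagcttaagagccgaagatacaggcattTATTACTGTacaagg

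The motif, searched on the sense strand, occurs in 59.5% of all Ighv segments, in 81 functional and 29 pseudogene segments. Ighv5-1, the segment nearest to the D segments, is annotated as a pseudogene. Read from its ATG, codon 79 is a stop, shown in capitals below beside the same stretch of its closest relative, the functional Ighv5-6, with which it is 90.4% identical. Among pseudogenes whose transcript starts with ATG, 39 of 42 hold a stop in frame, against 1 of 77 functional segments.
Ighv5-1: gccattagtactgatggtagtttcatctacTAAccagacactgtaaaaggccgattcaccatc
Ighv5-6: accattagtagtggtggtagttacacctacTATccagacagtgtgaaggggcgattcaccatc

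Close relatives limit how surely a read can be given to 1 segment. At least one 50-base stretch was shared with another annotated gene in 143 of 185 segments, and the median segment shared 18.5% of its 50-base stretches. Among segments that led a library, Ighv6-4 shared 0%, Ighv5-1 2.63%, Ighv7-2 6.82% and Ighv5-6 15.5%. Ighv1-55 shared 38.0%, Ighv11-1 52.3% and Ighv1-62-2 91.8%. The labels give no read length, so these shares are a guide only. Ighv1-15 is 98.0% identical to Ighv1-23 and Ighv1-37 is 98.6% identical to Ighv1-20, so counts within these pairs are uncertain. Rearranged segments also carry somatic mutations in mature B cells, which alignment to the germline can lose or move to a relative.

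The libraries differed in depth and content. Total counts ran from 5345377 to 21835865 in Hypoxia and from 8662279 to 63943036 in Hypoxia+Nitrate. Ribosomal DNA genes took 7.06% to 75.7% of counts in Hypoxia, and mitochondrial protein genes took 64.0% and 49.3% in Hypoxia+Nitrate 1 and 4 but 7.31% and 6.90% in Hypoxia+Nitrate 2 and 3. Small intestinal epithelium markers were 8 of 8 higher in Hypoxia+Nitrate, against 11.7% of all genes tested. Their summed level was 51.7 to 544 CPM (counts scaled to a common library size) in Hypoxia and 736 to 31521 in Hypoxia+Nitrate. A set of 1472 chemosensory receptor genes (odorant, vomeronasal, trace amine), assumed silent in gut, had counts for 98.9% to 99.5% of its members in each Hypoxia library and for 31.1%, 82.2%, 55.4% and 41.0% in Hypoxia+Nitrate 1 to 4. Their counts per kb of exon gave the background expected of a segment of the same length.

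Hypoxia libraries spread their Ighv counts over most of the locus, and Hypoxia+Nitrate libraries held them in far fewer segments. Ighv counts summed to 1665, 1255, 1918 and 1626 over the Hypoxia libraries, in replicate order, and to 813, 654, 902 and 729 over the Hypoxia+Nitrate libraries. They lay in 145, 140, 161 and 144 segments in Hypoxia and in 49, 52, 35 and 40 in Hypoxia+Nitrate, so the groups did not overlap. Expected numbers at 654 Ighv counts, the smallest total, were 136, 135, 150.3 and 137 segments in Hypoxia and 48.9, 52, 34.9 and 39.9 in Hypoxia+Nitrate. The means were 139.6 ± 7.22 and 43.9 ± 7.93 (SD, n = 4 per group). The 2-sided exact permutation p was 0.0286, the lowest possible value with 4 and 4 samples. The gap thus remained at equal Ighv counts, called equal depth below. Thinning left the Hypoxia+Nitrate numbers almost unchanged, and repeated copies of a molecule cannot be told from separate molecules here. Equal counts need not be equal numbers of molecules, and the gap at equal numbers of molecules was not tested.

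Evenness, computed on all Ighv counts of a library without thinning, also differed between the groups. The effective number of segments, the exponential of the Shannon entropy, is the number of equally used segments that would give the same diversity. It was 118, 115, 129.5 and 118 in Hypoxia 1 to 4, against 35.04, 35.3, 15.6 and 23.8 in Hypoxia+Nitrate 1 to 4. Every Hypoxia library was above 100 and no Hypoxia+Nitrate library was above 36. The group means were 120 ± 6.49 and 27.4 ± 9.55 (SD, n = 4; 2-sided exact permutation p = 0.0286). Evenness, the entropy as a share of its maximum over all 185 segments, was 0.909 to 0.932 in Hypoxia and 0.681, 0.683, 0.526 and 0.607 in Hypoxia+Nitrate.

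**Figure D1:**
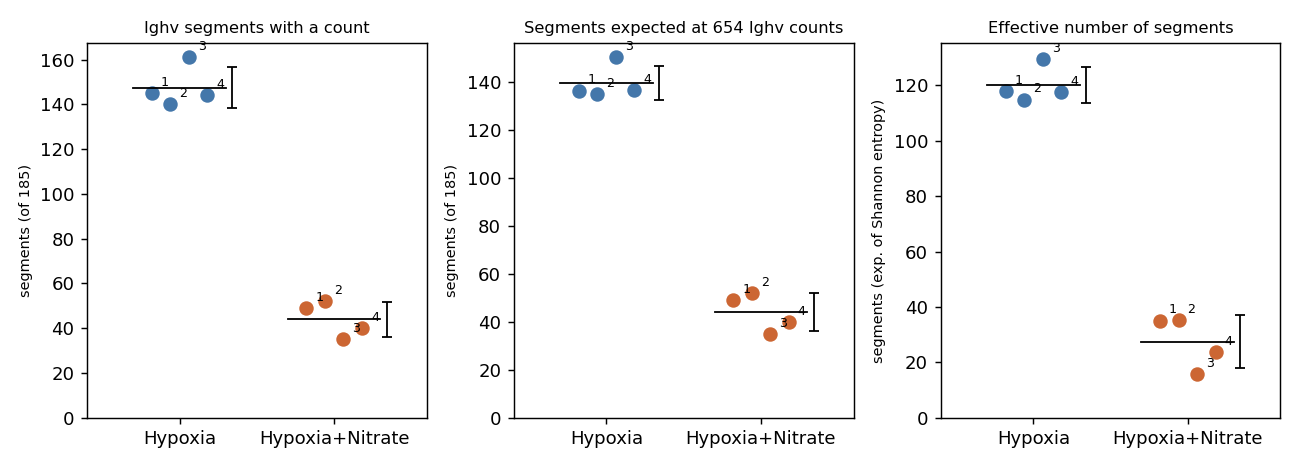
Ighv segments with a count (left), expected number at 654 Ighv counts (middle) and effective number (right), all on axes of segments starting at 0; points are libraries with their replicate number, lines are group means and bars the SD (n = 4). The Hypoxia libraries sit at 140 to 161 segments and the Hypoxia+Nitrate libraries at 35 to 52.

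The silent receptor genes moved in the same direction. Their effective number, as a share of all 1472, was 71.1%, 65.3%, 67.6% and 67.7% in Hypoxia 1 to 4, against 11.2%, 32.2%, 15.1% and 14.7% in Hypoxia+Nitrate 1 to 4. The same share for Ighv segments was 62.1% to 70.02% in Hypoxia and 18.9%, 19.1%, 8.43% and 12.8% in Hypoxia+Nitrate. Neither share was taken at equal depth. Receptor counts per kb were 12 to 20.7 in Hypoxia and 2.96, 12.7, 11.8 and 4.75 in Hypoxia+Nitrate 1 to 4. Kappa light chain variable (Igkv) segments, which rearrange on chromosome 6, had an effective number, of 160, between 86.1 and 104 in Hypoxia and between 23.7 and 32.4 in Hypoxia+Nitrate. The part of the receptor background in the Ighv difference was not tested. After the expected background was taken off each segment, the effective number was 71.4 to 79.2 in Hypoxia and 33.2, 24.1, 11.1 and 21.01 in Hypoxia+Nitrate. Within a library the same amount per kb was taken off every segment. The step cannot remove a background spread unevenly over segments, so the remaining gap does not show how much is background.

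Counts came in clumps in both groups. The median segment with a count held 10, 8, 10 and 9 counts over Hypoxia 1 to 4, against 12, 9, 10 and 10 in Hypoxia+Nitrate 1 to 4. Segments with only 1 or 2 counts numbered 3 to 10 in Hypoxia and 0 to 6 in Hypoxia+Nitrate. Molecular identifiers are not mentioned in the labels, so repeated copies of the same molecule cannot be told from separate molecules, and a segment without a count was not detectable at this depth rather than unused.

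A few segments took most of the counts in Hypoxia+Nitrate. The 10 leading segments of each library held 17.7%, 19.4%, 17.8% and 18.3% of its Ighv counts over Hypoxia 1 to 4, against 49.6%, 50.5%, 80.7% and 68.2% in Hypoxia+Nitrate 1 to 4. The means were 18.3% ± 0.799 and 62.2% ± 15.01 (SD, n = 4; 2-sided exact permutation p = 0.0286). The single leading segment held 2.34% (Ighv6-4), 2.55% (Ighv1-62-2), 3.34% (Ighv5-6) and 2.21% (Ighv11-1) in Hypoxia, and 8.12% (Ighv1-55), 7.95% (Ighv7-2), 21.6% (Ighv5-1) and 10.3% (Ighv5-6) in Hypoxia+Nitrate. Each Hypoxia+Nitrate library had a leader of its own, and no segment held more than 21.6% of any library.

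**Figure D2:**
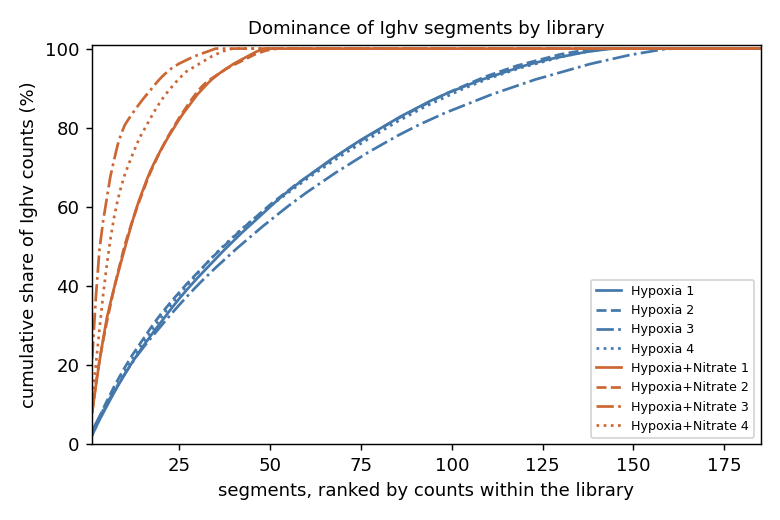
Cumulative share of a library's Ighv counts (%, vertical axis) over its segments ranked from most to least counted (horizontal axis), 1 line per library, Hypoxia in blue and Hypoxia+Nitrate in orange. The 10 leading segments hold 17.7% to 19.4% in the Hypoxia libraries and 49.6% to 80.7% in the Hypoxia+Nitrate libraries.

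Leading segments recurred among the Hypoxia+Nitrate libraries more than among the Hypoxia libraries. Any pair of Hypoxia+Nitrate libraries shared 4 or 5 of their 10 leading segments, any pair of Hypoxia libraries 0 to 2, and pairs across the groups 0 to 3. The overlap of whole usage profiles, the summed smaller share of each segment, ran from 30.4% to 39.4% between Hypoxia+Nitrate libraries, except for Hypoxia+Nitrate 1 and 4, which overlapped by 56.5%. These are also the libraries with the largest mitochondrial share. Hypoxia pairs overlapped by 54.5% to 57.8% and pairs across the groups by 17.3% to 30.6%. These overlaps are descriptions, since pairs share libraries.

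Only 5 segments had a count in all 8 libraries: Ighv5-6, Ighv5-1, Ighv2-9-1, Ighv1-15 and Ighv1-26. Ighv5-6 (113625506 to 113625956), a functional segment, held 21, 21, 64 and 11 counts over Hypoxia 1 to 4, against 51, 47, 138 and 75 in Hypoxia+Nitrate 1 to 4. As a share of Ighv counts that is 0.677% to 3.34% in Hypoxia and 6.27% to 15.3% in Hypoxia+Nitrate, and the shares do not overlap. Its level over the whole library did not pass the test across all genes (log2 fold change 1.32, SE 0.711, edgeR quasi-likelihood adjusted p = 0.181).

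The pseudogene Ighv5-1 (113572927 to 113573402) held 12, 11, 32 and 14 counts in Hypoxia and 53, 28, 195 and 48 in Hypoxia+Nitrate. Its share was 0.721%, 0.877%, 1.67% and 0.861%, against 6.52%, 4.28%, 21.6% and 6.58%. The highest share in Hypoxia was below the lowest in Hypoxia+Nitrate, and Hypoxia+Nitrate 3 stood far above the others. The log2 fold change of Ighv5-1 was 2.14 (SE 0.797, edgeR adjusted p = 0.0715).

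Ighv2-9-1 (113769850 to 113770302) took 0.721% to 1.56% of Ighv counts in Hypoxia and 3.94%, 4.59%, 12.2% and 2.47% in Hypoxia+Nitrate 1 to 4. Ighv1-36 (114879888 to 114880321) had 1, 0, 17 and 19 counts in Hypoxia and 20, 39, 65 and 65 in Hypoxia+Nitrate. Ighv1-15 (114657353 to 114657786) had 5, 11, 14 and 7 counts in Hypoxia and 45, 9, 35 and 71 in Hypoxia+Nitrate. In shares of Ighv counts all 3 were higher in each Hypoxia+Nitrate library than in any Hypoxia library. In the test over all genes none passed (edgeR adjusted p = 0.250, 0.162 and 0.112). These 3, like Ighv5-6 and Ighv5-1, were each among the 5 leading segments of some Hypoxia+Nitrate library, and leading segments were the ones named. Their higher shares therefore follow in part from that choice. Shares also rise where counts lie in fewer segments. How many of all Ighv segments had shares without overlap was not counted.

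Other leaders belonged to 1 or 2 libraries. Ighv1-55 (115208095 to 115208591) had 66 and 55 counts in Hypoxia+Nitrate 1 and 4 and 0 in Hypoxia+Nitrate 2 and 3, against 12, 9, 14 and 0 in Hypoxia 1 to 4. Ighv1-39 followed it, with 26 and 63 counts in Hypoxia+Nitrate 1 and 4 and 0 in Hypoxia+Nitrate 2 and 3. Ighv7-2 (113912025 to 113912483) had 52 counts in Hypoxia+Nitrate 2 and 0, 3 and 3 in the other Hypoxia+Nitrate libraries. The leaders thus split into a group present in every Hypoxia+Nitrate library and a group found in some of them.

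**Figure D3:**
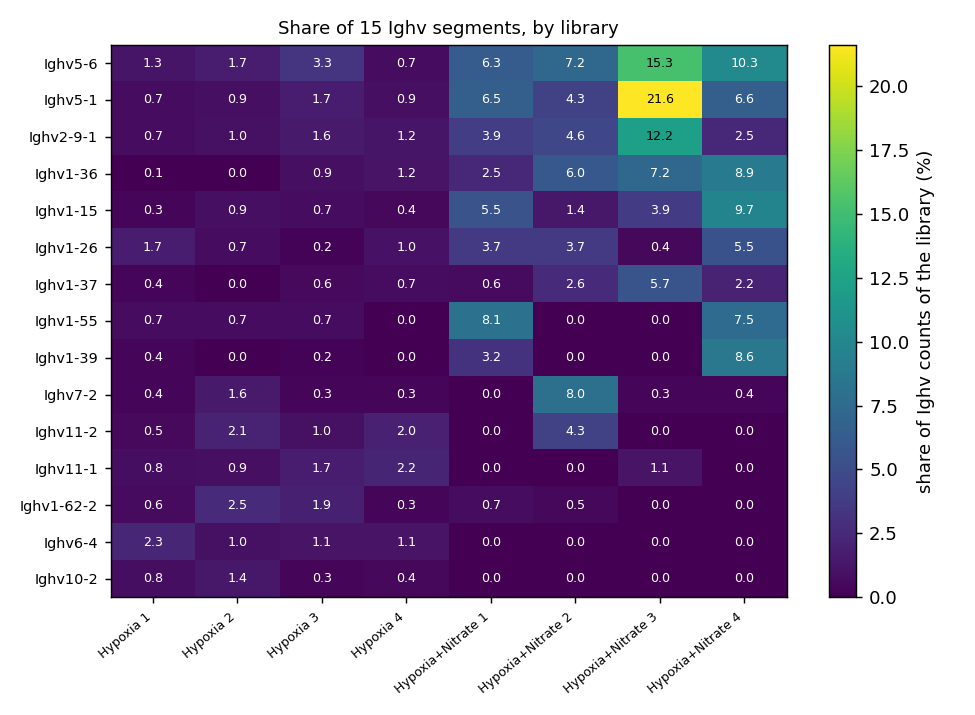
Share of a library's Ighv counts (%, colour and printed value) for 15 segments (rows) in the 8 libraries (columns). Ighv5-6 and Ighv5-1 are high in every Hypoxia+Nitrate library, Ighv1-55 is high only in Hypoxia+Nitrate 1 and 4, and Ighv6-4 and Ighv10-2 are at 0 in all Hypoxia+Nitrate libraries.

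At the other end, 78 segments were without counts throughout Hypoxia+Nitrate, and 26 of these had a count in all 4 Hypoxia libraries. Loss of counts was not particular to Ighv. Silent receptor genes had counts for 98.9% to 99.5% of members in Hypoxia libraries. In Hypoxia+Nitrate 1 to 4 that was 31.1%, 82.2%, 55.4% and 41.0%. How many genes over the whole table show the same pattern as these segments was not counted. Ighv6-4 (114406474 to 114406961), the leader of Hypoxia 1, held 39, 12, 22 and 18 counts in Hypoxia and 0 in each Hypoxia+Nitrate library. Its mean CPM in Hypoxia was 8.25 times that of a floor of 3 counts per Hypoxia+Nitrate library. The median counted segment held more than 3 counts and background was not taken off, so 8.25 is not a lower bound. Ighv11-1 held 14, 11, 33 and 36 counts in Hypoxia, and 10 in Hypoxia+Nitrate 3 alone. In the opposite direction, 1 segment, Ighv1-74, had counts in Hypoxia+Nitrate only, 6 of them in Hypoxia+Nitrate 1. The background expected of a segment averaged 4.14 to 7.13 counts in Hypoxia and 1.02, 4.36, 4.08 and 1.64 in Hypoxia+Nitrate 1 to 4.

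Few segments could be tested one by one. Of 185 segments 25 passed the filter on low counts, and 0 were higher and 1 was lower in Hypoxia+Nitrate (edgeR quasi-likelihood test, adjusted p of 0.05); of all genes tested 11.7% were called higher and 12.7% lower. At an unadjusted p of 0.05, 2 were higher and 2 lower; DESeq2 called 1 higher and 3 lower and limma-voom 1 and 8. The median log2 fold change was −1.74 over the 25 segments, of which 17 had a negative value, against −0.58 over all genes tested. A segment can pass the filter through 1 group alone, and Ighv10-2, below, passed through Hypoxia alone. The direction of the 25 segments therefore follows in part from the filter. The called segment was the pseudogene Ighv10-2 (114496003 to 114496300), with 14, 17, 5 and 7 counts in Hypoxia and 0 in Hypoxia+Nitrate (edgeR adjusted p = 0.0138). Its mean CPM in Hypoxia was 4.12 times that of 3 counts per Hypoxia+Nitrate library, which is likewise not a lower bound. Ighv10-2 was not tested for want of counts without Hypoxia 1, Hypoxia 2, Hypoxia+Nitrate 1 or Hypoxia+Nitrate 4. The number called lower rose to 38 of 76 tested without Hypoxia+Nitrate 2 and to 26 of 76 without Hypoxia+Nitrate 3. It rose to 4 or 5 without any 1 of Hypoxia 2, 3 and 4 and Hypoxia+Nitrate 1 and 4. It fell to 0 of 27 without Hypoxia 1. The share of all genes called in these refits is not given here, so these counts cannot be read as particular to Ighv.

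The share of Ighv counts in all nuclear protein-coding and antigen receptor counts was lower in Hypoxia+Nitrate. It was 0.0637%, 0.0445%, 0.0548% and 0.0484% in Hypoxia 1 to 4, against 0.00855%, 0.01305%, 0.0163% and 0.00458% in Hypoxia+Nitrate 1 to 4 (means 0.0528 ± 0.00840 and 0.0106 ± 0.00512, SD, n = 4; 2-sided exact permutation p = 0.0286). With the expected background taken off, the share was 0.0285% to 0.05375% in Hypoxia. It was then 0.00675%, −0.00398%, 0.00331% and 0.00275% in Hypoxia+Nitrate 1 to 4. The part of background in the difference of the Ighv share was not tested. In bulk tissue, fewer cells of a type and less RNA per cell cannot be told apart. With all counts as the denominator, which includes mitochondrial and ribosomal DNA genes, the difference did not pass (exact permutation p = 0.143).

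Set against the background, the picture was uneven. Ighv counts were 1.44, 1.64, 1.45 and 1.495 times the expected background in Hypoxia 1 to 4, against 4.31, 0.810, 1.20 and 2.41 times in Hypoxia+Nitrate 1 to 4 (exact permutation p = 0.514). Functional segments stood at 1.34 to 1.70 times in Hypoxia and at 6.09, 0.954, 1.24 and 3.38 times in Hypoxia+Nitrate (exact permutation p = 0.429). Hypoxia+Nitrate 1 and 4 thus had the highest ratios, and excess over background was not tested within a library. Without both, the mean over all segments and that over functional segments were lower in Hypoxia+Nitrate (differences of −0.505 and −0.428).

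Pseudogene segments were lower against the background in Hypoxia+Nitrate. They stood at 1.62, 1.45, 1.23 and 1.51 times the expected background in Hypoxia and at 1.08, 0.548, 1.11 and 0.633 times in Hypoxia+Nitrate, with no overlap (2-sided exact permutation p = 0.0286; it rises above 0.05 without Hypoxia 1, 2 or 4 or Hypoxia+Nitrate 2). Pseudogenes make up 35.5% of the unique exonic length of the locus. Their share of Ighv counts was 39.9%, 31.4%, 30.03% and 35.9% in Hypoxia 1 to 4, near that of length, and 8.86%, 24.0%, 33.04% and 9.33% in Hypoxia+Nitrate 1 to 4.

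That difference in share did not pass (34.3% ± 4.48 against 18.8% ± 11.8, SD, n = 4; 2-sided exact permutation p = 0.0857), and reached p = 0.0286 in the exact test without Hypoxia+Nitrate 3. In that library the pseudogene Ighv5-1 alone held 195 of 902 counts. Pseudogenes with a count numbered 57, 50, 58 and 56 in Hypoxia and 4, 18, 9 and 4 in Hypoxia+Nitrate, and functional segments 88, 89, 103 and 88 against 45, 34, 26 and 36. In Hypoxia+Nitrate 1 and 4 the counts therefore lay almost wholly in segments that can encode a heavy chain.

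**Figure D4:**
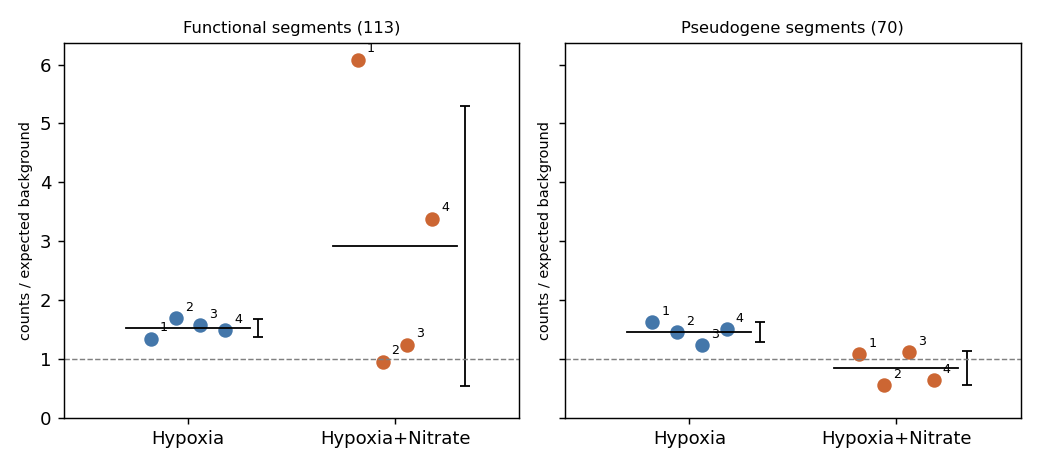
Counts of functional (left) and pseudogene (right) Ighv segments divided by the background expected from silent receptor genes (vertical axis from 0, dashed line at 1); points are libraries with their replicate number, lines are means and bars the SD (n = 4). Functional segments reach 6.09 and 3.38 in Hypoxia+Nitrate 1 and 4, while pseudogenes stay between 0.548 and 1.62 in all 8 libraries.

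By family, the first number of a segment's name, 0 of 16 shares passed after adjustment (exact permutation tests with Benjamini-Hochberg adjustment, lowest adjusted p = 0.0653). The large Ighv1 family, 93 segments and 50.6% of unique length, held 44.8% to 53.9% of Ighv counts in Hypoxia and 61.0%, 54.0%, 35.4% and 66.3% in Hypoxia+Nitrate. Ighv5, the family of Ighv5-6 and Ighv5-1, held 9.13%, 9.88%, 13.6% and 8.49% in Hypoxia and 22.9%, 13.3%, 39.7% and 19.9% in Hypoxia+Nitrate (unadjusted exact permutation p = 0.0571). The lowest Ighv5 share in Hypoxia+Nitrate was just under the highest in Hypoxia.

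Other families lay on either side. Mean shares of Ighv2, Ighv7 and Ighv16 were 6.40%, 2.39% and 0.257% in Hypoxia and 9.47%, 2.69% and 0.726% in Hypoxia+Nitrate. Ighv8, with 16 segments, held 6.85% to 11.5% in Hypoxia and 0%, 6.12%, 0.444% and 1.24% in Hypoxia+Nitrate. Ighv12 and Ighv15 held 0.365% to 3.19% and 0.300% to 2.29% in Hypoxia and no count in Hypoxia+Nitrate. Ighv14 held 2.56% to 4.55% in Hypoxia and 0.412% to 1.53% in Hypoxia+Nitrate. Along with Ighv9, Ighv10 and Ighv13, these 7 of 16 families did not overlap between the groups, all being lower in Hypoxia+Nitrate, and did not pass (exact permutation, adjusted p = 0.0653 each). Of all Ighv segments, 75.7% to 87.0% had a count in each Hypoxia library and 18.9% to 28.1% in each Hypoxia+Nitrate library. Silent receptor genes lost counts as well, so low shares of small families are not particular to them.

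Shares by position along the locus did not pass the test. The 61 segments nearest to the D segments, which hold 32.8% of unique length, took 26.4%, 36.1%, 37.1% and 35.2% of Ighv counts in Hypoxia and 32.7%, 39.6%, 63.9% and 30.5% in Hypoxia+Nitrate (2-sided exact permutation p = 0.457). Only Hypoxia+Nitrate 3, led by Ighv5-1, Ighv5-6 and Ighv2-9-1 of that stretch, stood high. The 62 most distant segments took 31.7% ± 4.32 and 23.7% ± 9.77 (SD, n = 4; exact permutation p = 0.229).

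The IgA constant gene moved the other way from the Ighv share. Igha held 335, 396, 89 and 117 counts over Hypoxia 1 to 4, against 4860, 1305, 1686 and 8751 in Hypoxia+Nitrate 1 to 4. It rose by a log2 fold change of 3.90 (SE 0.870, edgeR adjusted p = 0.0120; adjusted p = 0.0518 without Hypoxia 1). Of 8 heavy chain constant genes 1 was higher and 0 were lower, against 11.7% and 12.7% of all genes tested. Ighm, the IgM constant gene, held 1386 counts in Hypoxia+Nitrate 4 and 57, 0 and 102 in Hypoxia+Nitrate 1 to 3, against 27 to 84 in Hypoxia. The log2 fold change of Ighm was 2.36 (edgeR adjusted p = 0.193) and −0.23 without Hypoxia+Nitrate 4.

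Ighv counts per 100 Igha counts were 497, 317, 2155 and 1390 in Hypoxia and 16.7, 50.1, 53.5 and 8.33 in Hypoxia+Nitrate (2-sided exact permutation p = 0.0286; p = 0.0857 without any 1 Hypoxia+Nitrate library). A rearranged transcript carries both parts, but Ighv counts also hold background. The expected background was 1155, 765.5, 1320 and 1088 Ighv counts in Hypoxia 1 to 4. It was 188.7, 807.2, 754.6 and 302.9 in Hypoxia+Nitrate 1 to 4. Neither ratio in this paragraph was corrected for background, so neither measures rearranged transcripts alone. Against the kappa locus the shift was smaller: 123, 106, 104 and 115.5 Ighv counts per 100 Igkv counts in Hypoxia and 61.5, 53.8, 48.5 and 37.7 in Hypoxia+Nitrate (2-sided exact permutation p = 0.0286). Ighv exceeded Igkv counts in every Hypoxia library and was below them in every Hypoxia+Nitrate library.

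**Figure D5:**
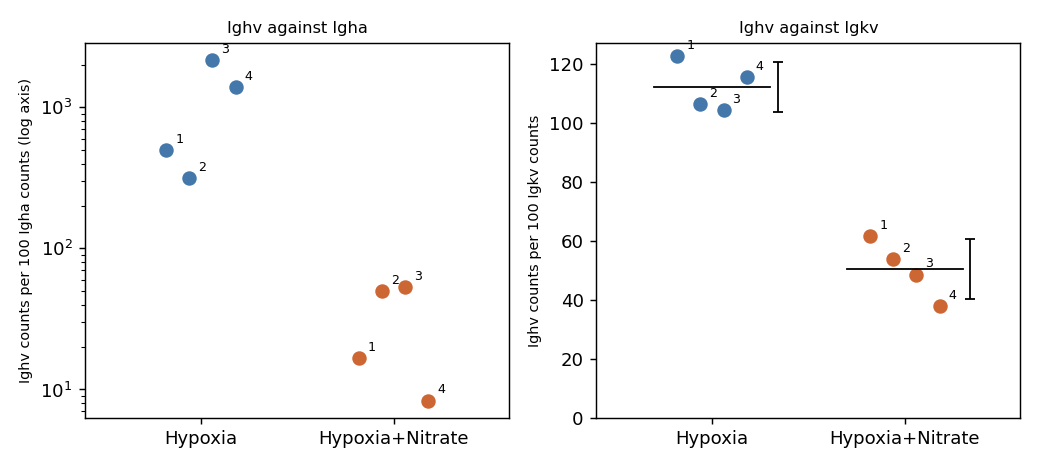
Ighv counts per 100 Igha counts (left, log axis) and per 100 Igkv counts (right, axis from 0); points are libraries with their replicate number, and on the right lines are means and bars the SD (n = 4). The Hypoxia libraries lie at 317 to 2155 on the left and above 100 on the right; the Hypoxia+Nitrate libraries lie at 8.33 to 53.5 and 37.7 to 61.5.

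Other antibody genes were read from lists, to be set beside 11.7% of all genes tested called higher and 12.7% called lower. Of 4 light chain constant genes 1, Igkc, rose by 3.80 (SE 0.798, edgeR adjusted p = 0.00997). Of 14 secretory and plasma cell genes 4 were higher and 0 lower. Jchain, which links IgA dimers, held 212, 84, 126 and 48 counts in Hypoxia and 885, 506, 562 and 2186 in Hypoxia+Nitrate (log2 fold change 2.94, adjusted p = 0.0110). Pigr, the epithelial receptor that exports IgA, rose by 3.28 (adjusted p = 0.0164). Xbp1, a secretory transcription factor, and Ell2, an elongation factor of immunoglobulin mRNA processing, rose by 2.17 and 2.44 (adjusted p = 0.0398 and 0.0308), and neither call held without any 1 Hypoxia library or without Hypoxia+Nitrate 1 or 4. Pigr did not pass without Hypoxia 1, 3 or 4, and with library size as the only scaling none of Igkc, Jchain, Pigr, Xbp1, Ell2 and Rag1 passed. Of the 14 genes, 6 had a negative log2 fold change and none of these passed: Tnfrsf17 (−2.44), Irf4 (−2.28), Fkbp11 (−2.28), Eaf2 (−1.72), Derl3 (−1.52) and Pou2af1 (−0.35), with edgeR adjusted p from 0.0710 (Eaf2) to 0.688 (Pou2af1).

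Recombination genes had little signal in either group. Of 6 recombination and mutation genes 2 fell: Rag1, with 104, 129, 235 and 193 counts in Hypoxia and 0, 28, 16 and 0 in Hypoxia+Nitrate (−4.01, edgeR adjusted p = 0.0289), and Rag2 (−5.80, adjusted p = 0.00939). Their Hypoxia counts were 1.49 and 1.57 times the expected background, about as for Ighv segments. The call of Rag1 did not hold without any 1 Hypoxia library. Of all genes tested 12.7% were called lower.

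Among the Hypoxia+Nitrate libraries B cell markers were highest in Hypoxia+Nitrate 4. Of 11 markers 0 were higher and 1, Pax5, was lower, against 11.7% and 12.7% of all genes tested. Their summed level was 58.8 to 62.9 CPM in Hypoxia and 4.48, 19.4, 29.8 and 153 in Hypoxia+Nitrate 1 to 4. Hypoxia+Nitrate 1 and 2 had 4 and 1 markers at 0. Cd79a, a part of the B cell receptor, held 1709 counts in Hypoxia+Nitrate 4 and 17, 99 and 162 in Hypoxia+Nitrate 1 to 3. Plasma cell markers summed to 64.6 to 85.9 CPM in Hypoxia and 305, 80.4, 74.8 and 298 in Hypoxia+Nitrate 1 to 4. The part of cell composition in Ighv usage was not tested.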

How the data were processed

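Whole-number read counts per gene were deposited by the authors as a joint table and per sample, and the 8 per-sample columns were identical to it. Per the submitters' processing notes, the tools named are featureCounts 1.5.0-p3, HISAT and DESeq 1.8.3, and the build is GRCm38. Their annotation, strand setting and treatment of duplicates were not given in the sources used here. Per the labels' protocols, a strand-specific kit was used. Of 55421 gene IDs 55240 matched GENCODE M21, which gave biotypes, coordinates and transcript sequences; lengths count exonic bases that no other gene overlaps. Of the Ighv segments 5 are overlapped by another gene.

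Groups and replicate numbers come from the sample titles. The members and gene lists were chosen with earlier results of these data known. Genes were tested in R 4.3.3 with edgeR 4.0.16 (TMM, filterByExpr with a minimum count of 10 and a minimum total of 15, quasi-likelihood test, Benjamini-Hochberg adjustment at 0.05 over all genes tested); SEs came from the fold change and its F statistic, and CPM used TMM. Usage measures were computed within Ighv counts and compared by exact permutation of the difference of means over all 70 assignments. Thinning used the hypergeometric expectation. Background was the receptor genes' counts per kb multiplied by a segment's unique length. Named segments were the 5 leading in each library, called segments and the largest of each family; of these a part is printed, and Ighv1-37, Ighv1-74 and the segments counted in all libraries were chosen after their values were seen. Alternatives were DESeq2 1.42.0, limma-voom (limma 3.58.1), other scalings and filters, the replicate number as a block, background subtraction and left-out libraries. Scripts were tested on simulated data. The shared replicate numbers did not pair the samples: deviations of same-numbered samples correlated at 0.13, −0.22, 0.27 and −0.08. A member of the recombination and mutation list is not reported here.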

Additional observations from a re-analysis of the deposited data

Results flagged for a closer look

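Within groups of 4 samples, 92 sets of values were examined for a sample whose gap to its nearest neighbour exceeded Dixon's 95% limit, and 18 stood out; chance gives about 1 in 20, and the measures share counts. Hypoxia 3 was above the other Hypoxia libraries in segments expected at equal depth (150.3) and in the share of Ighv5-1 (1.67%). Hypoxia 1 was above them in the shares of the Ighv6 family (6.01%) and of Ighv6-4 (2.34%), and Hypoxia 2 in those of the Ighv7 family (4.22%) and of Ighv7-2 (1.59%). Hypoxia 4 was below them in the share of Ighv1-55 (0%).

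Hypoxia+Nitrate 2 stood above its group in the shares of the families Ighv7 (9.02%), Ighv13 (0.306%) and Ighv16 (2.91%) and of the segments Ighv7-2 (7.95%) and Ighv11-2 (4.28%). Hypoxia+Nitrate 3 did so in the shares of the Ighv2 family (18.2%), Ighv5-1 (21.6%) and Ighv11-1 (1.11%). Hypoxia+Nitrate 1 was high in the Ighv6 family (4.31%) and Hypoxia+Nitrate 4 in the Ighv9 family (0.549%) and in Ighm (67.6 CPM).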

How the results depend on the processing

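The equal-depth, effective-number and leading-share results kept their direction and passed under every other setting except the 2 reduced sample sets below, also with any 1 replicate left out. The difference of Hypoxia+Nitrate minus Hypoxia ran from −98.4 to −92.1 segments at equal depth, from −95.2 to −88.7 in effective number and from 37.8 to 48.2 percentage points in the leading share when 1 replicate was left out. Without Hypoxia+Nitrate 1 and 4, an alternative chosen after seeing the data, these differences were −96.2, −94.6 and 47.3, and that of the Ighv share was −0.0382 points. Without Hypoxia 1 and 2, likewise added, they were −99.6, −96.2 and 44.2, and −0.0410 points. With 4 against 2 samples the exact test cannot go below p = 0.0667, so these did not pass by construction. With all counts as denominator the Ighv share differed by −0.0122 points and did not pass. The pseudogene share ran from −20.2 to −12.2 points on leaving out 1 replicate.

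Counts of called segments depended on the processing. Higher calls were 1 with no filter, limma-voom, DESeq2 or without Hypoxia+Nitrate 1 and 4, and 0 to 2 when 1 replicate was left out. Lower calls were 60 with no filter, 8 with limma-voom, 3 with DESeq2, 3 without mitochondrial and ribosomal DNA genes, 2 after background subtraction, 16 without Hypoxia+Nitrate 1 and 4, 13 without Hypoxia 1 and 2, and 0 to 38 when 1 replicate was left out. Antibody pathway calls, 8 of 32, became 2 with library size alone, 13 with limma-voom, 4 after background subtraction, 2 without Hypoxia 1 and 2, and 3 to 14 when 1 replicate was left out. The number tested changed with the filter and the samples. Otherwise the cause was not tested. Shares of all genes called under these alternative settings are not given here, so the counts cannot be read as particular to antibody genes.

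With the replicate block, 0 segments were called lower (Ighv10-2 adjusted p = 0.0814, edgeR), 0 higher, and 6 pathway genes; 2 of 4 Hypoxia libraries correlated best with their own number, a hint from the data only. Signs reversed for Ighv2-9-1 after background subtraction (−0.10), for Ighv1-7 without Hypoxia 4 (0.04) or Hypoxia+Nitrate 3 (0.21; range over left-out replicates −0.71 to 0.21), and for Ighm with limma-voom (−0.38), without Hypoxia+Nitrate 4 (range −0.23 to 2.88) and without Hypoxia+Nitrate 1 and 4 (−0.29). Ighv counts over background reversed without Hypoxia+Nitrate 1 (range −0.0365 to 1.13) and without 1 and 4 (−0.505), and functional segments without 1 and 4 (−0.428). Ighv totals of 654 to 1918 counts limit what single segments can show.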
